A study of Rattus norvegicus with 24 samples.

Results

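Voltage-gated sodium channels are described here through 8 of their subunit genes, Scn1a, Scn3a, Scn7a, Scn8a, Scn9a, Scn2b, Scn3b and Scn4b, out of 26641 loci with a gene name in the brain messenger RNA libraries. A gene stood for its symbol in the deposited gene list, and where several loci shared a symbol the locus with the highest mean over the 24 libraries was used. The 8 genes were chosen by their measured difference between injured and sham-operated rats in both regions, so their values in that comparison are a description without a test.

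The libraries came from adult male Sprague-Dawley rats. In the injured group 6 rats had a traumatic brain injury (TBI) by lateral fluid percussion and 6 sham-operated controls had the surgery without the impact. Each rat gave 1 library of the perilesional cortex and 1 of the ipsilateral thalamus at 3 months, so there were 4 groups of 6 libraries. The injured rats entered the study for an inflammatory rim around the lesion on magnetic resonance imaging and are not an unselected injured population. Libraries held between 30568927 and 54608922 fragments. Values are normalized counts, that is, fragments divided by a size factor of the library, and 3 fragments equal 2.06 to 3.76 normalized counts. Transcript lengths were not used here, so levels of different genes are not ranked against each other. The tissue labels matched their identity genes: 3 cortex transcripts (Emx1, Tbr1, Neurod6) summed to 5686 to 9204 normalized counts in cortex and 94.1 to 192 in thalamus, and 5 thalamus transcripts (Tcf7l2, Lef1, Prkcd, Gbx2, Rora) summed to 35525 to 76694 in thalamus and 2618 to 3200.5 in cortex. A few libraries carried choroid plexus transcripts: the sum of 7 such genes reached 260700 normalized counts in the thalamus of TBI rat 45, where the next TBI rat had 1814, and 107594 in sham thalamus and 23516 in sham cortex.

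A voltage-gated sodium channel is built around a pore-forming α subunit that opens on depolarization and carries the upstroke of the action potential. β subunits are single-pass membrane proteins of the immunoglobulin family that set the gating and surface level of the α subunit and act in cell adhesion. In the adult brain, Scn1a, Scn2a and Scn8a encode the main α subunits, which gather at axon initial segments and nodes of Ranvier. Scn3a is mainly a subunit of the developing brain, Scn9a is best known from nociceptors, and Scn7a encodes an atypical α subunit that responds to extracellular sodium rather than to voltage and is known from glial cells.

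Of the 8 genes, 5 were lower and 1, Scn7a, was higher in TBI cortex by limma at an adjusted p under 0.05, against 29.2% of all loci tested. In TBI thalamus 6 were lower and 1, Scn3b, was higher, against 35.4% of loci. The choice of the genes used these contrasts, so nothing is read from the counts. The median log2 difference of the 8 genes was −0.31 in cortex and −0.69 in thalamus, and that of all loci tested was −0.0096 and −0.023. Groups did not overlap for 4 genes in the cortex (12.5% of loci) and for 4 in the thalamus (18.2% of loci). In the fit without the rat as a block, the TBI effect was called different between regions for 4 genes. Of these 1 was higher and 3 lower in thalamus, against 2.72% and 4.54% of loci. Nothing is read from that either.

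**Figure D1:**
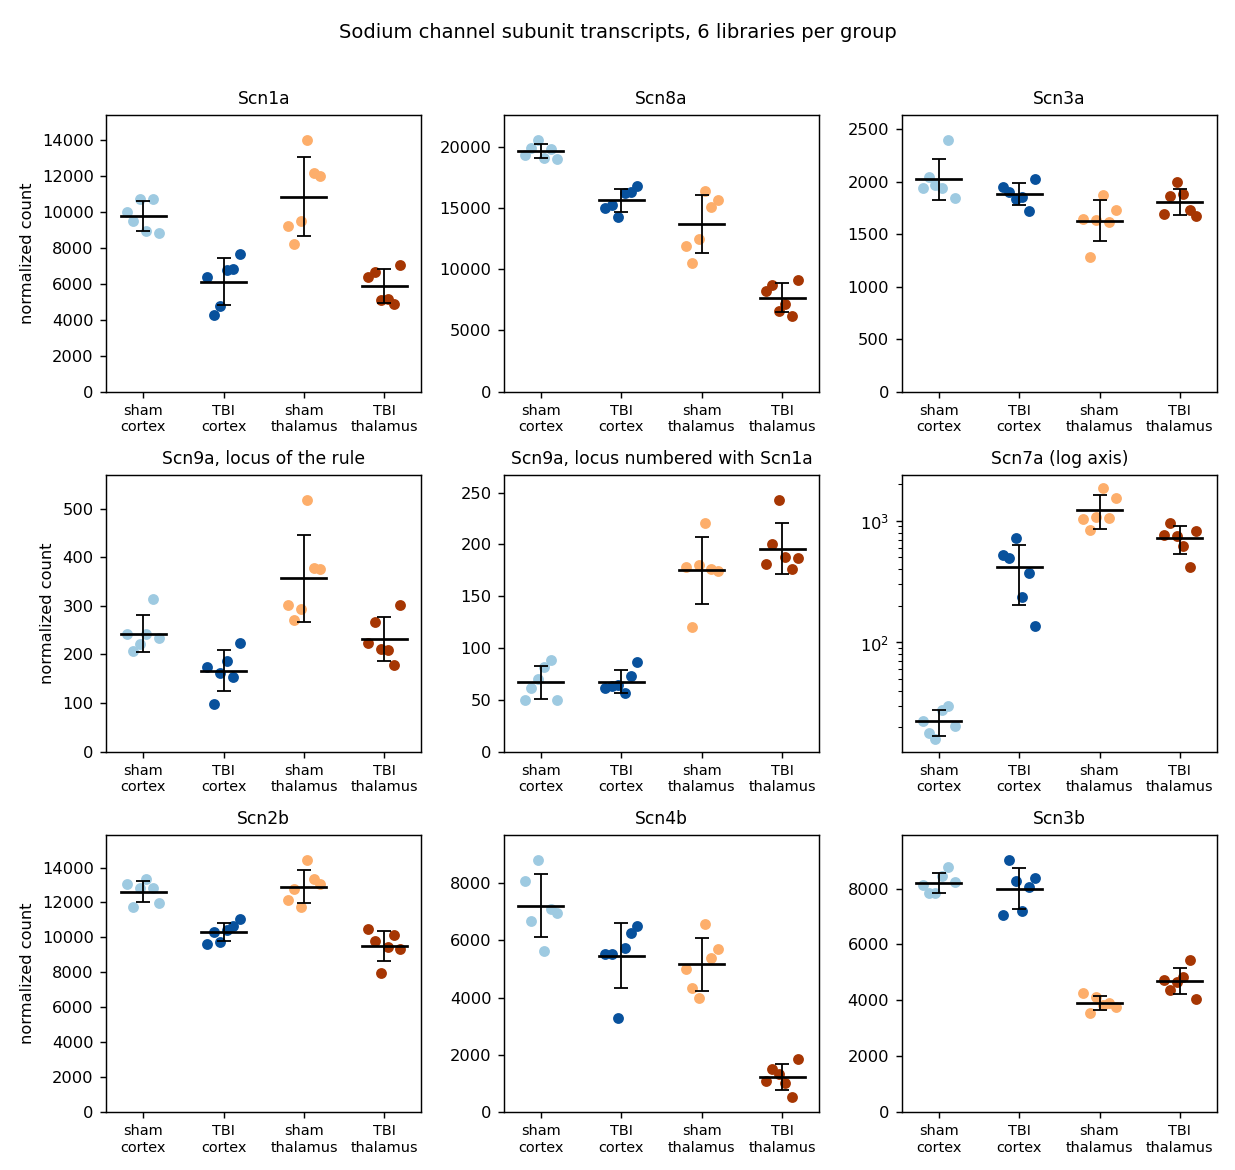
Normalized counts of the 8 sodium channel subunit genes and of another Scn9a locus, with 1 point per library, the horizontal line at the mean and the bar at ±1 SD (n = 6 per group); the Scn7a axis is logarithmic and all others start at 0. Scn7a ran from 16.0 to 30.2 in sham cortex and from 137 to 727 in TBI cortex, and Scn4b from 525 to 1861 in TBI thalamus.

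Scn1a encodes the α subunit that many inhibitory interneurons depend on for fast firing. Its normalized count in the cortex was 8791 to 10698 in sham rats (median 9735) and 4264 to 7668 in TBI rats (median 6568). In the thalamus it was 8219 to 13983 in sham rats (median 10735) and 4873 to 7048 in TBI rats (median 5759.5). Every TBI library lay under every sham library of its region. The log2 difference between TBI and sham was −0.70 in the cortex (SE 0.12, 95% interval −0.96 to −0.45) and −0.88 in the thalamus (SE 0.13, 95% interval −1.16 to −0.60). The difference between the regions' log2 differences, −0.17, had a 95% interval of −0.57 to 0.22. By group mean the order was sham thalamus, sham cortex, TBI cortex and TBI thalamus, and only the step from sham cortex to TBI cortex was free of overlap. Summed transcripts of 5 inhibitory neuron genes (Gad1, Gad2, Slc32a1, Pvalb, Sst) were also lower, at 21868 to 26835 normalized counts in TBI cortex against 29156 to 31159 in sham cortex. Of the 5 genes, 3 fell in the cortex, against 14.9% of all loci tested, and the other 2 were not called. In the thalamus that sum was 6225 to 16831 in TBI rats (median 14328) and 19978 to 38188 in sham rats (median 23849). The sham maximum was that of rat 26, with the next library at 24424, and the TBI minimum was that of rat 45. Of these genes 4 fell in the thalamus, against 20.9% of all loci tested. The remaining 1 had a log2 difference of 0.54 that was not called. Of 2 glutamatergic neuron genes (Slc17a6, Slc17a7), 1 fell in the cortex and 2 fell in the thalamus. Their sum was 46387 to 52335 in sham and 41435 to 49017 in TBI cortex, with overlap. In the thalamus it was 28403 to 39738 in sham and 24943 to 27558 in TBI rats. Fewer cells of a type and less RNA per cell cannot be told apart in such tissue libraries.

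Scn8a encodes the α subunit that dominates mature axon initial segments and nodes. In the cortex it ran from 19011 to 20545 normalized counts in sham rats (median 19559) and from 14234 to 16758 in TBI rats (median 15718). In the thalamus it ran from 10536 to 16388 in sham rats (median 13773) and from 6175 to 9089.6 in TBI rats (median 7698). The groups did not overlap in either region. The log2 difference was −0.33 in the cortex (SE 0.046) and −0.83 in the thalamus (SE 0.12). The thalamic difference was larger by −0.50 on the log2 scale, with a 95% interval of −0.78 to −0.22. The deposited locus of Scn8a is joined with an unnamed Ensembl gene, so its value may hold reads of both.

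Scn3a, the subunit of developing brain, differed less. Its normalized count in the cortex was 1844 to 2396 in sham rats (median 1953) and 1715 to 2026 in TBI rats (median 1876). Thalamic counts were 1279 to 1871 in sham rats (median 1635) and 1674 to 1991 in TBI rats (median 1800.4). The groups overlapped in both regions. The log2 difference was −0.10 in the cortex (95% interval −0.24 to 0.032) and 0.16 in the thalamus (95% interval −0.012 to 0.33). The effects of the regions lay 0.26 apart (unadjusted 95% interval 0.047 to 0.47), and this was not called after adjustment over all loci. All 4 groups overlapped with their neighbours in the order of means.

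Scn7a had the largest difference among the 8 genes. In sham cortex it was at 16.0 to 30.2 normalized counts (median 21.5), which came from 17 to 27 fragments per library. In TBI cortex it was 137 in rat 63, 238 in rat 52, 373 in rat 56, 494 in rat 24, 528 in rat 22 and 727 in rat 45. All 6 injured rats lay above all 6 sham rats, and the injured rats also differed widely among themselves. The mean was 22.5 ± 5.55 (SD, n = 6) in sham cortex and 416 ± 213 in TBI cortex, which is 18.5-fold higher, with a log2 difference of 3.99 (SE 0.32, 95% interval 3.30 to 4.67). Without rat 45 the log2 difference was 3.79.

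In the thalamus the same gene went the other way. Scn7a was 846 to 1883 normalized counts in sham thalamus (median 1063) and 419.7 to 962 in TBI thalamus (median 757). The groups overlapped, with 5 of 6 TBI libraries under all sham libraries, and the log2 difference was −0.77 (SE 0.21, 95% interval −1.21 to −0.32). TBI cortex stayed under sham thalamus, whose lowest library was above the highest TBI cortex library. On the log2 scale the thalamic TBI effect minus the cortical one was −4.75, with a 95% interval of −5.61 to −3.90.

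Other cell type markers moved in the same cortex libraries. Of 7 fibroblast genes (Col1a1, Col1a2, Col3a1, Dcn, Lum, Ogn, Fmod), 6 rose in TBI cortex, with a median log2 difference of 0.83, and their sum was 12596 to 28355 normalized counts in TBI rats against 8735 to 11677 in sham rats. Rat 45, with the highest Scn7a count, also had the highest fibroblast sum, 28355, and the next rat had 19796. Its choroid plexus sum of 7 genes, 32364, was far above the 854 to 1159.5 of the other TBI cortex libraries. The lowest fibroblast sum in TBI cortex, 12596, was in rat 56, while the lowest Scn7a count was in rat 63. In sham thalamus, where Scn7a was 846 to 1883, the fibroblast sum was 1320 to 6420. Of 10 microglial genes 9 rose, and of 9 astrocyte genes 5 rose and 2 fell. Among all loci tested, 14.3% rose and 14.9% fell in TBI cortex. Of 5 Schwann cell genes (Prx, Pmp2, Cdh19, Ncmap, Dhh), 4 could be tested and none was called in the cortex. Ncmap was at 0 in every library of sham cortex and of both thalamus groups. Its mean over the 24 libraries was 0.068 normalized counts. Their sum was 261 to 405 normalized counts in TBI cortex and 280.1 to 365 in sham cortex. The part of these cells in the Scn7a value was not tested.

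Scn9a carried 4 loci, and they did not behave alike. The locus with the highest mean, which the rule takes, was 207 to 314 normalized counts in sham cortex (median 237) and 97.3 to 224 in TBI cortex (median 168). Thalamic counts were 272 to 518 in sham rats (median 339) and 179 to 302 in TBI rats (median 217). In each region 5 of 6 TBI libraries lay under all sham libraries. The log2 difference was −0.58 in the cortex (SE 0.16) and −0.61 in the thalamus (SE 0.16), with hardly any difference between regions (−0.03, 95% interval −0.53 to 0.46).

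Where these loci lie limits that reading. The assembly numbered the loci of chromosome 3 in 2 runs, and among names that could be matched to RefSeq, 88.9% of 506 in the first run were plus-strand genes and 82.3% of 487 in the other were minus-strand genes. The locus used and 2 smaller Scn9a loci were in the run of plus-strand genes, although RefSeq places Scn9a on the minus strand. The remaining Scn9a locus stood in the minus-strand run, between Scn1a and Scn7a. It held 49.5 to 88.2 normalized counts in sham cortex (median 65.8) and 56.8 to 86.9 in TBI cortex (median 63.9). The thalamus held 120.0 to 221 in sham rats (median 178) and 176 to 243 in TBI rats (median 187). Its log2 difference was 0.04 in the cortex (95% interval −0.31 to 0.39) and 0.18 in the thalamus (95% interval −0.10 to 0.46), so no lower value in TBI rats was seen at this locus. Both smaller loci of the plus-strand run were lower in TBI rats, with log2 differences of −0.48 and −0.75 (cortex) and of −0.81 and −0.73 (thalamus). The locus of the rule equalled 2.07% to 4.28% of the Scn1a count across all 24 libraries. The deposited tables give no strand, and whether the plus-numbered loci hold transcripts of Scn9a was not tested. Summed over all 4 loci, the log2 difference was −0.46 in the cortex and −0.42 in the thalamus.

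**Figure D2:**
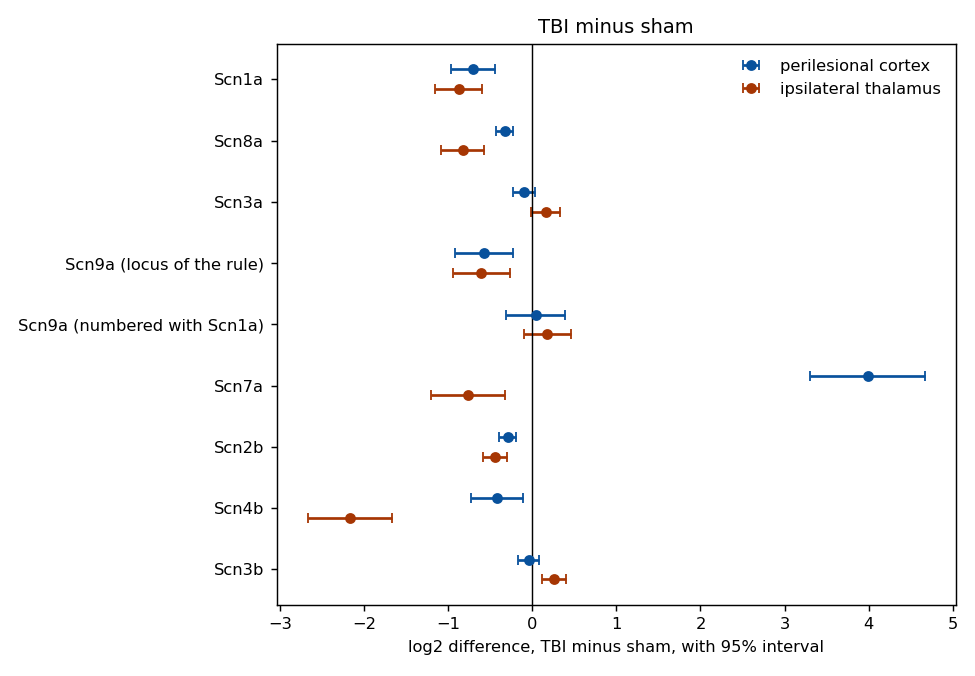
Log2 difference between TBI and sham-operated rats on the log2(normalized count + 1) scale with its 95% interval, in the perilesional cortex (blue) and the ipsilateral thalamus (brown), 6 libraries per group. Scn7a lies at 3.99 in cortex and −0.77 in thalamus, Scn4b reaches −2.17 in thalamus, and Scn3a lies at −0.10 and 0.16.

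The β subunits are of 2 kinds. Scn2b and Scn4b encode those linked to the α subunit by a disulfide bond, and Scn3b encodes one that binds without it. Scn2b and Scn4b are neighbours on chromosome 8, where the deposited table gives positions 48045360 to 48057615 and 48067554 to 48082735. The methods name RGSC3.4 as the genome and the processing notes Rnor_5.0, so the build of these positions is one of the 2. RefSeq promoter windows in GRCr8, another build than that of the table, were found for 6 of the 8 genes. The 250 bases before the start of these 2 genes are shown because they are adjacent genes of 1 kind whose TBI values parted in the thalamus. Capitals mark CpG dinucleotides.

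Scn4b, chr8:54343623-54343872, plus strand: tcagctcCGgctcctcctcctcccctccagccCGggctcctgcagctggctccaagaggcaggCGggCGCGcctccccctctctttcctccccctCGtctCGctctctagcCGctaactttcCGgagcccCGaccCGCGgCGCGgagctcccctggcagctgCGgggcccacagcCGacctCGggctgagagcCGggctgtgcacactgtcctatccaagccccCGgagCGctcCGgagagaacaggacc

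Scn2b, chr8:54322133-54322382, plus strand: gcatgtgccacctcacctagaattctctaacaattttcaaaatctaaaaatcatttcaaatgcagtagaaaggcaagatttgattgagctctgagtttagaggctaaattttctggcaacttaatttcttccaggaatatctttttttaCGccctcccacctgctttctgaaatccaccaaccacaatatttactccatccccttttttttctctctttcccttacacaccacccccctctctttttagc

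The Scn4b window held 21 CpG dinucleotides and the Scn2b window 1, against a median of 5 over 33469 windows of this length. At least 21 were found in 15.1% of windows, and fewer than 2 in 18.1%. Across the other members with a window, Scn8a had 53, Scn9a 5, Scn3a 4 and Scn7a 2. Most of the Scn8a window lay inside the annotated span of its gene. Only 80 bases of the Scn7a window lay outside that of its gene, and these held 0 CpG. The sequence GGGCGG, searched on both strands, had 6 matches in the Scn8a window and 1 in that of Scn7a and occurred in 30.5% of all windows. Windows of the other 4 members had no match. TATAAA, on both strands, was in none of the 6 windows and in 12.9% of all windows. These matches are descriptions of the letters in these windows.

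Scn4b, whose product promotes the resurgent current of fast-firing neurons, had the largest thalamic difference. In sham thalamus it was 3999 to 6563 normalized counts (median 5187). In TBI thalamus it was 525 in rat 56, 1009 in rat 52, 1072 in rat 22, 1309.7 in rat 45, 1505 in rat 24 and 1861 in rat 63. The highest injured rat thus stood well under the lowest sham rat. The mean was 5166 ± 933 in sham and 1214 ± 458 in TBI thalamus, a 4.26-fold lower value, with a log2 difference of −2.17 (SE 0.24, 95% interval −2.67 to −1.67). In the cortex it was 5635 to 8809.8 in sham rats (median 7038) and 3277 to 6488 in TBI rats (median 5631), with overlap. The cortical log2 difference was −0.42 (SE 0.14), and −0.28 without TBI rat 45, whose count of 3277 was the lowest. The TBI effect in the thalamus exceeded that in the cortex by −1.75 on the log2 scale (95% interval −2.37 to −1.14).

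Markers of several cell types moved in the same thalamus libraries, where 14.5% of all loci tested rose and 20.9% fell. Of the 5 thalamus identity genes 4 fell, and their sum was 49549 to 76694 normalized counts in sham and 35525 to 43223 in TBI thalamus, without overlap. All 10 microglial genes rose, with a median log2 difference of 1.02, and their sum was 13587 to 17827 in sham and 28475 to 37115 in TBI rats. Of 9 astrocyte genes 5 rose and none fell, and their sum was 285676 to 318670 in sham and 405577 to 466279 in TBI rats. Their part in the thalamic values of Scn4b and the other subunits was not tested.

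Scn2b differed by less and with little spread. It was 11763 to 13327 normalized counts in sham cortex (median 12827) and 9646 to 11038 in TBI cortex (median 10346). Thalamic counts were 11735 to 14426 in sham rats (median 12909.5) and 7969 to 10454 in TBI rats (median 9614). Every TBI library lay under every sham library of its region. The log2 difference was −0.29 in the cortex (SE 0.047) and −0.44 in the thalamus (SE 0.067), and these differed by −0.15 (95% interval −0.32 to 0.022).

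Scn3b was the member that lay higher in TBI thalamus. It was 3538 to 4249 normalized counts in sham thalamus (median 3872) and 4054 to 5436 in TBI thalamus (median 4692), and 5 of 6 TBI libraries lay above all sham libraries. In the cortex it was 7837 to 8779 in sham rats (median 8193) and 7064 to 9024 in TBI rats (median 8172). The log2 difference was 0.26 in the thalamus (SE 0.066, 95% interval 0.12 to 0.40) and −0.041 in the cortex (95% interval −0.17 to 0.084). In the cortex the sign was not stable: it was 0.021 with upper quartile scaling. The thalamic effect exceeded the cortical one by 0.30 (95% interval 0.11 to 0.49).

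Summed neuronal marker transcripts were lower in TBI rats in both regions. Of all loci tested, 14.9% fell in the cortex and 20.9% in the thalamus. Of 14 neuronal genes (Rbfox3, Snap25, Syt1, Stmn2, Tubb3, Nefl, Nefm, Nefh, Map2, Syp, Elavl4, Eno2, Thy1, Uchl1), 11 fell in TBI cortex, with a median log2 difference of −0.29, and 12 fell in TBI thalamus, with a median of −0.46. Their sum was 494471 to 528058 normalized counts in sham cortex and 363535 to 460886 in TBI cortex. In the thalamus it was 415207 to 494257 in sham and 276042 to 353432 in TBI rats. Subunit counts were therefore also expressed per 1000 counts of this sum within each library.

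On that ratio the members parted. The sum was itself lower in TBI rats, so a gene with an unchanged count is higher on the ratio. Scn2b overlapped between sham and TBI rats, at a median of 24.5 per 1000 in sham cortex and 25.5 in TBI cortex, and 29.0 in sham thalamus and 28.8 in TBI thalamus. Scn8a was 37.5 in sham and 39.0 in TBI cortex, with overlap, while in the thalamus it was 23.9 to 33.2 in sham and 17.5 to 27.9 in TBI rats, also with overlap. Scn4b overlapped in the cortex, at medians of 13.6 and 14.3, but in the thalamus it was 9.63 to 13.3 in sham and 1.49 to 5.48 in TBI rats. Scn1a was 17.3 to 21.4 in sham cortex and 11.7 to 16.9 in TBI cortex, without overlap. In the thalamus Scn1a overlapped, at medians of 24.1 and 18.5. Scn3b was 7.75 to 10.1 in sham thalamus and 11.9 to 16.9 in TBI thalamus, and Scn3a 2.90 to 3.93 and 4.91 to 7.21, both without overlap. In the cortex Scn3b was 15.4 to 16.6 in sham and 17.9 to 24.7 in TBI rats. Scn7a was 0.0321 to 0.0571 in sham cortex and 0.297 to 2.00 in TBI cortex, and in the thalamus its groups overlapped, at medians of 2.55 and 2.32. These ratios are descriptions, and the part of neuronal loss in the counts was not tested.

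**Figure D3:**
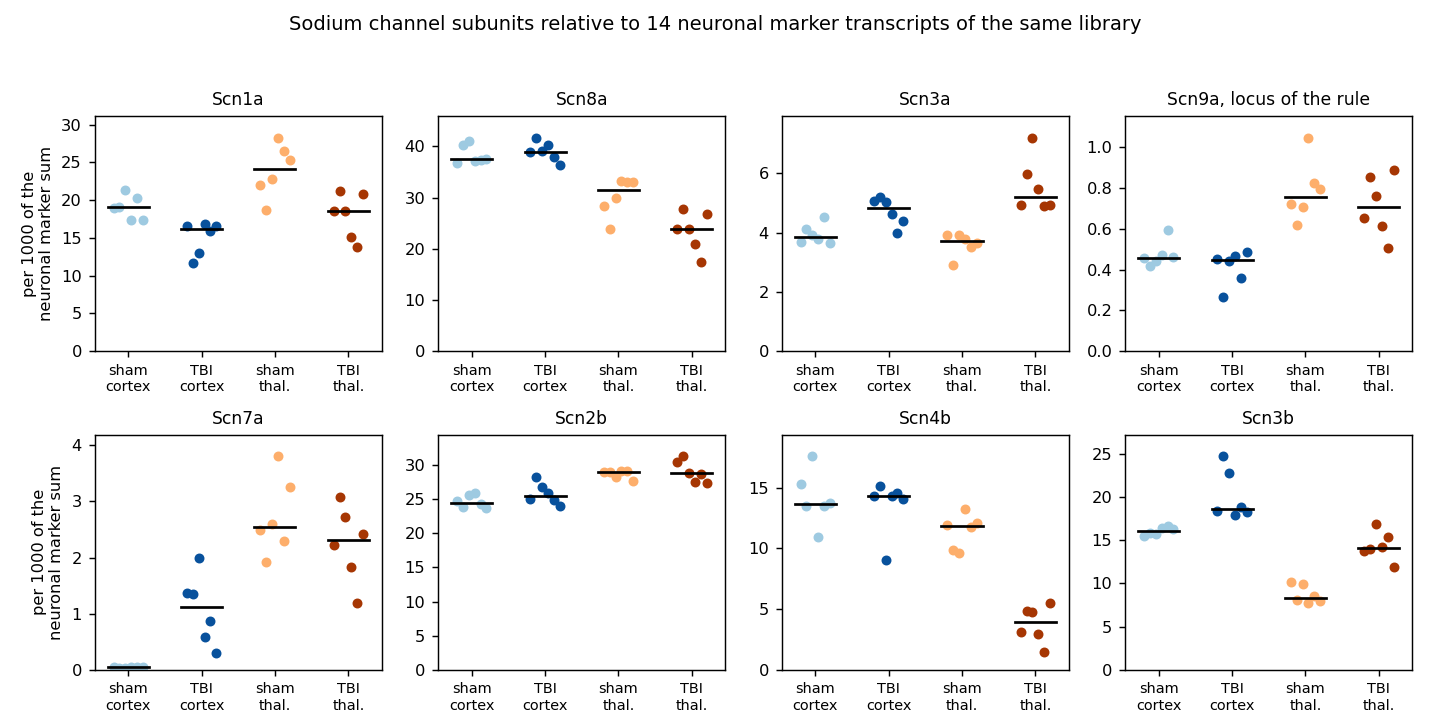
Each subunit gene per 1000 normalized counts of the sum of 14 neuronal marker genes in the same library, with 1 point per library and the line at the median of 6; all axes start at 0. Scn2b sits at a median of 24.5 to 29.0 in the 4 groups, and Scn4b at 11.8 in sham and 3.94 in TBI thalamus.

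The comparison of regions in sham-operated rats was not used to choose the genes and was tested. Between sham thalamus and sham cortex 6 of the 8 genes differed by limma (Benjamini-Hochberg adjusted), where 62.2% of all loci tested were called. Of these, 2 were higher in thalamus (33.9% of loci) and 4 lower (28.3% of loci), and for 3 the groups did not overlap (43.1% of loci). Nothing particular to these genes is read from the counts. Scn7a was the extreme, with a mean of 1239 ± 389 in sham thalamus and 22.5 ± 5.55 in sham cortex, 55.1-fold higher (log2 difference 5.70, SE 0.19, limma adjusted p = 8.75e-13, higher in 6 of 6 libraries). Scn3b was lower in thalamus in all 6 libraries, 3904 ± 255 against 8217 ± 365 (log2 difference −1.07, SE 0.049, limma adjusted p = 2.46e-11). Scn8a was also lower without overlap (log2 difference −0.54, SE 0.091, limma adjusted p = 9.14e-05).

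Scn4b was lower in sham thalamus by −0.49 on the log2 scale (SE 0.12, limma adjusted p = 0.00212), with 4 of 6 thalamus libraries under all cortex libraries. Scn3a was lower by −0.32 (SE 0.083, limma adjusted p = 0.00346), with 5 of 6. The Scn9a locus of the rule was higher by 0.53 (SE 0.14, limma adjusted p = 0.0047), with 3 of 6 above all cortex libraries. The Scn9a locus numbered with Scn1a was higher by 1.39 in 6 of 6 libraries (SE 0.17, limma adjusted p = 2.9e-06). For Scn1a (0.13, 95% interval −0.11 to 0.36, limma adjusted p = 0.321) and Scn2b (0.030, 95% interval −0.081 to 0.14, limma adjusted p = 0.638) no regional difference was called. The calls of the 8 genes were the same with the rat as a block. Oligodendrocyte transcripts differed between the same regions. All 8 oligodendrocyte genes were higher in thalamus, with a median log2 difference of 1.59, against 33.9% of all loci tested. Their sum was 225365 to 304768 in sham cortex and 712785 to 988835 in sham thalamus. The part of these cells in the regional values was not tested.

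**Figure D4:**
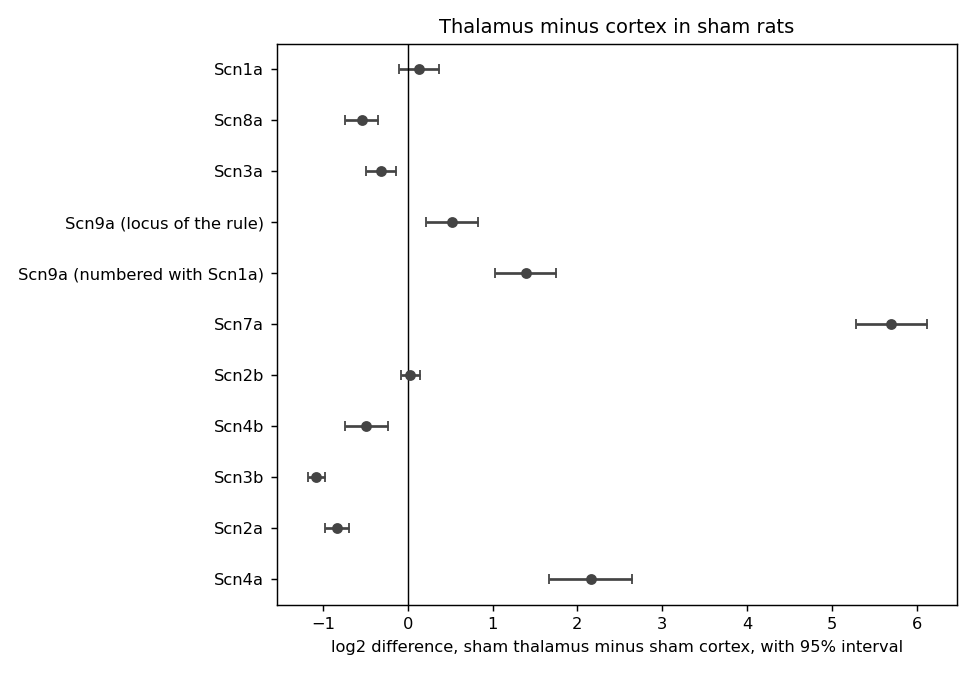
Log2 difference between sham thalamus and sham cortex with its 95% interval, 6 libraries per region from the same rats, for the 8 members, another Scn9a locus and for Scn2a and Scn4a. Scn7a lies at 5.70 and Scn4a at 2.16, Scn3b at −1.07 and Scn2a at −0.83, and the intervals of Scn1a and Scn2b include 0.

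Individual rats stood out across several members. In sham thalamus rat 38 had the highest count for 7 of the 8 genes and rat 32 the lowest for 6. Rat 38 also had the highest neuronal sum of that group, 494257, and the highest thalamus identity sum, 76694. The lowest neuronal sum of that group, 415207, was in rat 34. In TBI thalamus rat 56 was lowest for 5 genes, and its neuronal sum, 353432, was the highest of that group. Rat 63 was highest for 4 genes there. In TBI cortex rat 63 was highest for 6 and had the highest neuronal sum, 460886. In sham cortex rat 50 was highest for 5 and had the highest neuronal sum, 528058. Whether these ranks follow the neuronal sum was not tested.

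Of 4 other α subunit genes (Scn2a, Scn4a, Scn10a, Scn11a), 2 had a mean over the filter on low values. Scn2a, the main α subunit of excitatory axons, was 16388 to 20402 normalized counts in sham cortex (median 17361) and 13924 to 16757 in TBI cortex (median 14637). It fell by 0.27 on the log2 scale in the cortex (SE 0.058, limma adjusted p = 0.00341, 5 of 6 TBI libraries under all sham libraries). In the thalamus no change was called, with a log2 difference of −0.040 (95% interval −0.19 to 0.11, limma adjusted p = 0.702), and the sign turned with upper quartile scaling (0.025). The difference between the 2 effects, 0.23, did not pass the threshold (limma adjusted p = 0.143). In sham rats Scn2a was lower in thalamus than cortex by −0.83 in 6 of 6 libraries (SE 0.065, limma adjusted p = 1.91e-08).

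Scn4a, the muscle α subunit, rose by 0.72 in TBI cortex (SE 0.24, limma adjusted p = 0.0325), from 32.4 to 110.4 in sham to 91.5 to 135 in TBI rats, and this call was lost without sham rat 26 or 38 or TBI rat 22, 45 or 56 (limma adjusted p = 0.0601 to 0.0713). Its thalamic difference of 0.24 was not called (limma adjusted p = 0.0844), while upper quartile scaling gave 0.30 (limma adjusted p = 0.0318) and edgeR 0.29 (edgeR adjusted p = 0.0385). Scn10a and Scn11a, known from sensory neurons, were under the filter on low values: Scn10a was at or under 3 fragments in 18 of 24 libraries and Scn11a in 8 of 24.

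Sodium channels are held at the axon initial segment and nodes by ankyrins, spectrins and cell adhesion molecules, are tuned by intracellular FGF homologous factors, and work beside potassium channels. Of 22 genes listed for these roles, 21 were measured. In TBI cortex 13 fell and none rose, with a median log2 difference of −0.22. In TBI thalamus 12 fell and none rose, with a median of −0.32. Among all loci tested, 14.9% fell in the cortex and 20.9% in the thalamus. Of the 14 neuronal genes, 11 fell in the cortex and 12 in the thalamus, with medians of −0.29 and −0.46. The partner genes were listed with earlier results of these data known, so nothing particular to them is read from the counts. The same limit holds for their adjusted p-values. Cntn2 and Ptprz1 lay above 0 in both regions without passing the test.

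In the cortex the largest falls were at an FGF homologous factor and a juxtaparanodal potassium channel. Fgf12, which binds the tail of the α subunit, was 7792 to 9446 normalized counts in sham and 4416 to 7651 in TBI cortex and fell by 0.52 on the log2 scale (SE 0.099, limma adjusted p = 0.00145). Kcna2, a potassium channel of juxtaparanodes, fell by 0.47 (SE 0.080, limma adjusted p = 0.000662), and its partner Kcna1 by 0.40 (SE 0.090, limma adjusted p = 0.00412). Fgf13, another FGF homologous factor, fell by 0.40 (SE 0.073, limma adjusted p = 0.00106). TBI and sham groups did not overlap for 3 of these 4 genes, all but Kcna1, against 12.5% of all loci tested. The 4 were named for the size of their difference, so nothing is read from this.

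In the thalamus the largest fall was at Kcnab2, the cytoplasmic β subunit of those potassium channels, from 19319 to 24539.7 normalized counts in sham to 9107 to 12346 in TBI rats (log2 difference −0.98, SE 0.080, limma adjusted p = 9.95e-07). Fgf11 fell by 0.97 (SE 0.13, limma adjusted p = 6.67e-05), Kcna1 by 0.91 (SE 0.15, limma adjusted p = 0.000298) and Kcna2 by 0.75 (SE 0.12, limma adjusted p = 0.000237). None of these 4 overlapped between groups, where 18.2% of all loci tested did not, and they too were named for the size of their difference. The TBI effect differed between regions for 3 of the 21 genes, all with the lower value in thalamus: Kcnab2, Fgf11 and Sptbn4, the spectrin of initial segments and nodes. All loci called in that interaction made up 7.26% of those tested.

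**Figure D5:**
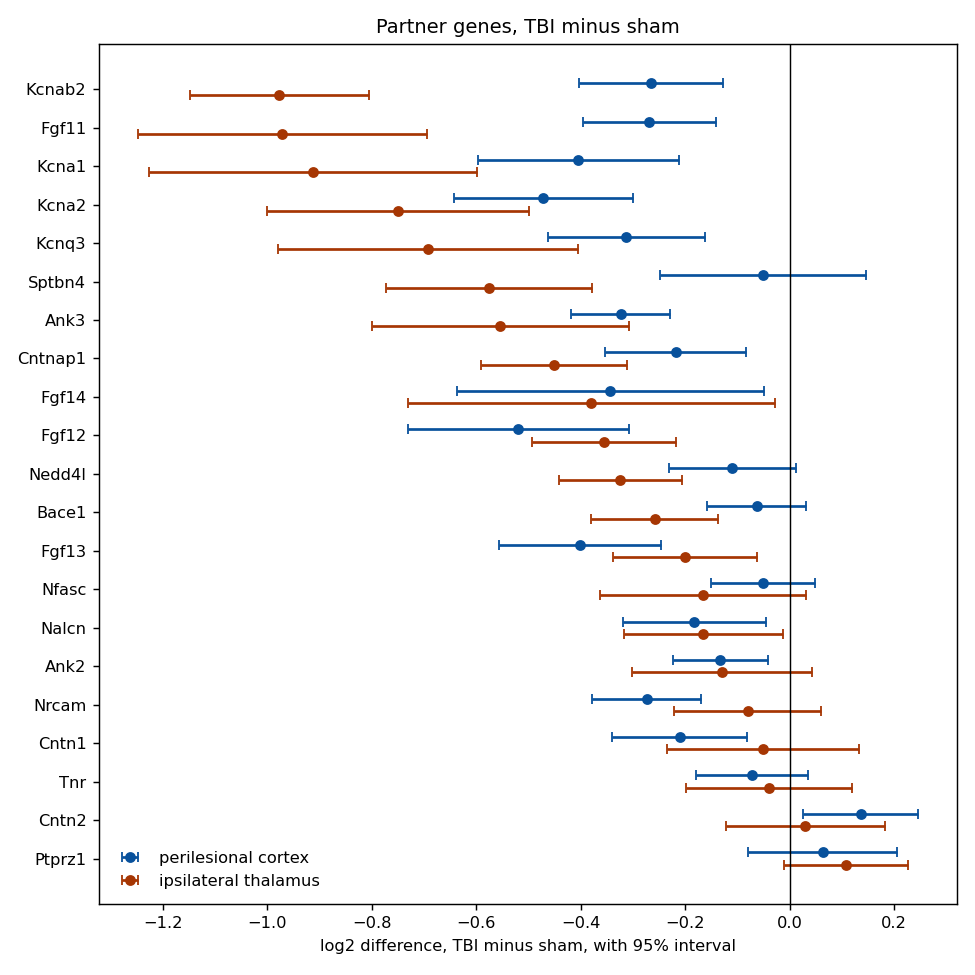
Log2 difference between TBI and sham with its 95% interval for 21 partner genes, in cortex (blue) and thalamus (brown), ordered by the thalamic value. Kcnab2 and Fgf11 lie at −0.98 and −0.97 in thalamus and at −0.26 and −0.27 in cortex, and Cntn2 and Ptprz1 lie above 0 in both.

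Over the 24 libraries, loci with the most similar profile were found by Pearson's r of log2 values among 15678 loci. These values rest on 4 groups and 12 rats that the libraries share and are a description. Scn8a was closest to Atp2b2, a plasma membrane calcium pump (r = 0.984), and Scn4b to Scn8a itself (r = 0.948). For Scn1a, Kcna1 was in the third place (r = 0.951). Scn2b was closest to LRP11 (r = 0.978), and Scn3b to Hpcal4, a neuronal calcium sensor (r = 0.988). Scn7a was closest to Chst9 (r = 0.962), a sulfotransferase gene, which had means of 7.63 in sham cortex, 95.9 in TBI cortex, 538 in sham thalamus and 469.6 in TBI thalamus. Scn3a had the weakest best match, Rsf1 (r = 0.858). The Scn9a locus of the rule was closest to Eif5a2 (r = 0.938), and the locus numbered with Scn1a to Slc5a7, the choline transporter (r = 0.975). Among the 8 members, r was 0.865 between Scn1a and Scn2b and −0.753 between Scn7a and Scn3b.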

How the data were processed

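Polyadenylated RNA of 12 rats was sequenced from stranded libraries, 24 in all. The authors aligned reads with TopHat2 2.0.11 and Bowtie2 2.2.2, assembled loci with Cufflinks 2.2.1, and deposited 1 table of signal values, each a fragment count scaled by the size factor of its library. Tool versions are credited to the submitters' processing notes. In each library at least 99.966% of values were whole multiples of 1 step within 0.1 fragment, which gave the fragments and depth. The floor of 3 fragments covers counting error only. Loci without a gene name (15693 of 42334, 1.90% to 2.23% of counts) were left out.

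Log2(normalized count + 1) was tested by limma 3.58.1 in R 4.3.3 (lmFit, eBayes with a trend) for named loci with a mean of at least 10, with p-values adjusted after Benjamini and Hochberg and called under 0.05. This scale understates the change of low genes. TBI was compared with sham within each region over 12 libraries, sham thalamus with sham cortex over 12, and the difference of both TBI effects over 24. Steps were tested on simulated data. Alternatives were TMM and upper quartile scaling, no filter, a filter at a mean of 50, other pseudocounts (0.1, 5), the sum over loci of a name, all 24 libraries in 1 fit, leaving out each library, the rat as a block and, added after seeing the data, edgeR 4.0.16 on recovered fragments.

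Rat numbers pair the regions, since both libraries of a number came from the same animal: their deviations from group means correlated with a median of 0.187 (0.00393 to 0.569), over 0.1 in 10 of 12 rats. The members and gene lists were chosen with earlier results of these data known. Named genes were all members, 4 other sodium channel genes, in each region the 4 largest differences past the threshold among 22 partner genes, and the loci among the 3 most like each member. Some genes of these lists are not reported here and were left out of list counts and sums. Promoters are from RefSeq (GRCr8). Protein sequences were not used here. Tables were handled with Python 3.11.15, pandas 2.3.3 and numpy 2.4.6, and figures drawn with matplotlib 3.10.9.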

Additional observations from a re-analysis of the deposited data

Results flagged for a closer look

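In 52 sets of 6 libraries, each a sodium channel locus in a group, 7 had a library far from the other 5 by Dixon's criterion, and chance marks about 1 in 20. In sham cortex rat 50 had 2396 normalized counts of Scn3a, where the next library had 2045, and 313.9 at the Scn9a locus of the rule, where the next had 241.5. In TBI cortex rat 45 had 3277 of Scn4b, with the next library at 5511, and 9.34 of Scn10a, with the next at 3.33, which came from 11 and 4 fragments. In TBI cortex rat 63 had 16757 of Scn2a, with the next library at 14931. In sham thalamus rat 32 had 8452 of Scn2a, with the next at 9990.2. In TBI thalamus rat 45 had 242.8 at the Scn9a locus numbered with Scn1a, with the next at 200.5.

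Among the genes considered here, limma without the rat as a block called the effect of TBI different between the regions for 4 of the 8 members. It did so for 3 of the 21 partner genes and for 7.26% of all loci tested. With the block the call of Scn3b was not kept. Scn7a was above the sham mean in all 6 injured rats in the cortex and under it in all 6 in the thalamus, and the log2 difference between the effects was −4.75. The thalamic effect minus the cortical one was −1.75 for Scn4b, −0.50 for Scn8a and 0.30 for Scn3b. The members were chosen with both effects known, so their values are a description and no independent test was made. For the partner genes, the thalamic effect was lower than the cortical one, by −0.71 on the log2 scale for Kcnab2 (limma adjusted p = 0.000179), by −0.70 for Fgf11 (limma adjusted p = 0.00389) and by −0.52 for Sptbn4 (limma adjusted p = 0.0208).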

How the results depend on the processing

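Across the alternatives no result changed direction among those called, and the counts of loci called stayed within 1.5 times the reported ones: 3671 to 5219 in the cortex (4531 reported), 4522 to 5945 in the thalamus (5516), 8773 to 10237 between regions of sham rats (9693) and 813 to 1329 for the difference of TBI effects (1138). The split of calls depended on scaling: with upper quartile scaling 2902 loci were higher and 1248 lower in TBI cortex (2223 and 2308 reported), and 2987 and 1990 in TBI thalamus (2259 and 3257). By edgeR 2822 were higher and 2300 lower in TBI thalamus, and 566 and 524 for the difference of TBI effects (427 and 711 reported). With the rat as replicate block, which pairs the regions, 9810 and 1301 loci were called in the last 2 contrasts, and 15 instead of 16 partner genes differed between regions of sham rats, with Kcna1 no longer called (limma adjusted p = 0.0511). For Scn3b the difference of TBI effects was 0.30 with an SE of 0.096 in the block fit (0.091 without it). Relative to its SE this was smaller than for the partner gene Cntnap1 (−0.23, SE 0.073), which was not called there (limma adjusted p = 0.0609). The call of Scn3b between the regions was therefore not kept with the block. Among the other sodium channel genes and the partner genes, the block changed no other call named here.

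Among the 4 other α subunit genes, 2 were called in the cortex, and 1 without sham rat 26 or 38 or TBI rat 22, 45 or 56. In the thalamus none was called by limma (1 at an unadjusted limma p under 0.05, Scn4a), and Scn4a was called with upper quartile scaling (0.30) or edgeR (0.29). The cause was not tested. Scn4a in the cortex lay between 0.51 and 0.86 without 1 library each. The log2 differences of the 8 members kept their direction except where the value was near 0: Scn3b in the cortex (−0.077 to 0.021), the Scn9a interaction (−0.18 to 0.084) and Scn2b between regions of sham rats (−0.0032 to 0.056). Whether the counts reflect fewer neurons or less RNA per neuron cannot be told apart, and at 16.0 to 30.2 normalized counts the sham cortex level of Scn7a limits the precision of its fold.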

Other observations

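The span of chromosome 3 that the deposited table gives to Scn1a, Scn9a and Scn7a (59009772 to 59496898) also holds 11 loci without a gene name in the run of plus-strand genes. The largest had mean normalized counts of 327 in sham cortex, 228 in TBI cortex, 495 in sham thalamus and 272 in TBI thalamus, and the next 132, 89.8, 196 and 108. Both were lower in TBI than in sham rats in both regions, as were the 3 Scn9a loci of that run. Loci without a gene name were outside the tests.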
